A study of Caenorhabditis elegans with 12 samples.

Results

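The 9 meiotic pairing and recombination genes described here are *spo-11*, *msh-5*, *him-8*, *zim-1*, *zim-2*, *zim-3*, *chk-2*, *him-17* and *rad-51*. They were found by gene symbol, and every probe set that carries one of the symbols was taken. They have 10 probe sets, 2 of them for *msh-5*, of 21541 probe sets for 17675 genes on the Affymetrix *C. elegans* array. LIN-54 is a DNA-binding subunit of the DRM complex, a conserved transcription regulator that contains E2F and Rb family proteins, and the arrays compare *lin-54* mutants with wild-type animals. Embryos came from *lin-54(n2990)* and from wild-type N2 young adults grown at 25°C, and germlines were dissected from *lin-54(n3423)* and from wild-type N2 adults kept at 20°C, which were 24 hours past L4. Each of these 4 groups has 3 arrays, and all strains share the N2 background.

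The alleles and tissues limit what each comparison models. *lin-54(n2990)* is a missense allele in the DNA-binding tesmin domain with partial loss of function, whereas *lin-54(n3423)* is a null allele kept over the balancer nT1, whose homozygotes are sterile and give no embryos to collect. Embryos are mostly somatic and hold a few primordial germ cells, and they were harvested by bleaching young adults, with no staging of the embryos stated. Dissected germlines ran from the mitotic tip to late pachytene, can carry some cells of the somatic gonad, and their RNA was amplified before labeling. Allele, temperature, labeling kit and tissue go together, so that a difference between the tissues cannot be told apart from a difference in any of them.

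In meiosis, homologous chromosomes find each other, align along their length and exchange DNA through programmed double-strand breaks. Each *C. elegans* chromosome has a pairing center near an end, where HIM-8 or a ZIM zinc-finger protein binds and links the chromosome to the nuclear envelope. SPO-11 then cuts the DNA, RAD-51 coats the resected ends, and MSH-5 stabilizes the intermediates that become crossovers. These events take place in the transition zone and pachytene region of the adult gonad, whereas embryonic somatic cells divide by mitosis. Early embryos also hold RNA that was loaded into the oocyte.

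Some arrays stood apart from the rest of their group, in ways that touch nearly all of these genes. The germline arrays numbered 1 had a correlation of 0.928 to 0.933 with the other arrays of their own genotype over all probe sets, while arrays 2 and 3 of a genotype had 0.984 and 0.988. Among mutant embryo arrays, replicate 3 had a correlation of 0.988 to 0.989 with the wild-type arrays, and replicate 2 had 0.928 to 0.944. The *lin-54* probe set was called present on no mutant germline array and on all 3 wild-type germline arrays, with a log2 change of −2.17 (standard error 0.43). In embryos, where the missense allele still makes RNA, it was present on all arrays with a log2 change of 0.42 (standard error 0.11). The number of probe sets called present ranged from 10826 to 11818 on mutant and from 11737 to 11985 on wild-type embryo arrays, and from 5954 to 8001 on mutant and from 6347 to 8209 on wild-type germline arrays.

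Detection calls, which the array software makes from the probe pairs of each probe set, showed RNA of most of these genes in both tissues. *spo-11*, *zim-2*, *him-8*, *him-17* and *rad-51* were called present on all 3 mutant embryo arrays and all 3 wild-type ones. *zim-3* was present on 3 mutant and 2 wild-type embryo arrays. *zim-1* and both probe sets of *msh-5* were present on 1 mutant array, replicate 2, and on 0 wild-type embryo arrays. *chk-2*, which encodes the kinase that starts pairing and break formation, was absent on all 12 arrays, germlines included, so that its values below are those of a probe set with no call above background even in meiotic tissue. In germlines, 9 of the 10 probe sets were present on every array numbered 2 or 3, while 6 were present on mutant replicate 1 and 4 on wild-type replicate 1. The map of calls shows these gaps in the columns of the arrays numbered 1.

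**Figure D1:**
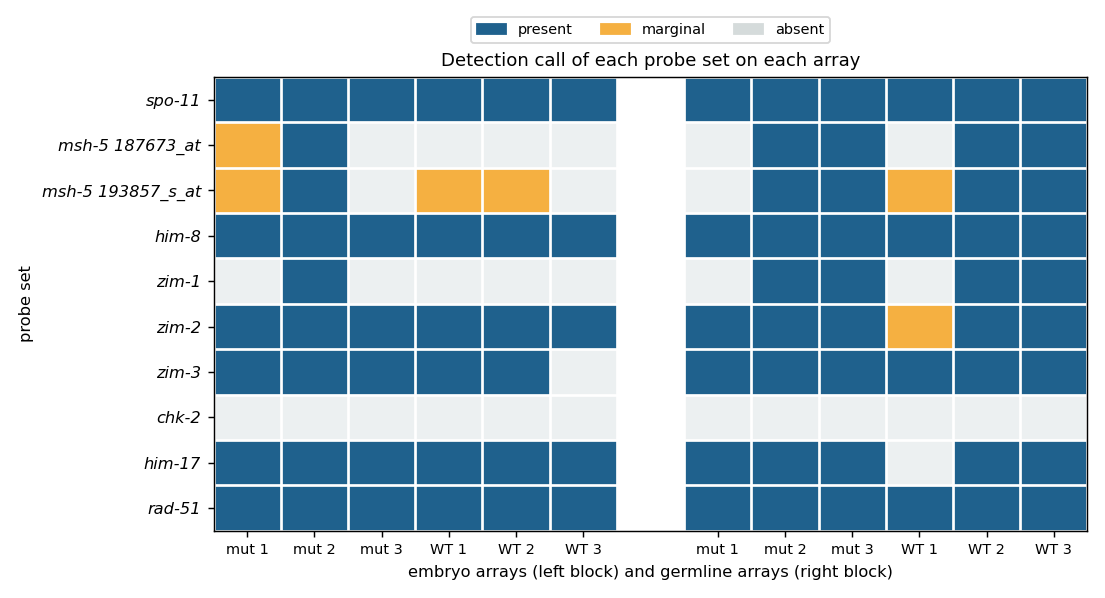
Detection call (present, marginal or absent) of each of the 10 probe sets, in rows, on each of the 12 arrays, in columns, with mutant (mut) arrays left of wild-type (WT) arrays in each tissue. *chk-2* is absent throughout, and *zim-1* and *msh-5* are present on 1 mutant and 0 wild-type embryo arrays.

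In *lin-54(n2990)* embryos the pairing and recombination genes were mostly higher than in wild-type embryos. Of the 10 probe sets, 9 had a higher mean in the mutant, against 50.7% of all probe sets, and their median log2 change was 0.57, against 0.0038 over all probe sets. A call required an unadjusted limma p no higher than 0.01 together with a 1.5-fold or larger difference, the thresholds of the study's methods. By this rule *zim-2* and *spo-11* rose, and no member fell. These 2 of 10 probe sets compare with 3.38% of all probe sets that were called higher, while 1.53% were called lower. Members were chosen with earlier results of these data known, and the paper already names *spo-11* among the raised genes, so that this is a description. Every mutant array lay above every wild-type array for 4 of the 10, against 15.2% of all probe sets. The reverse held for 0 of the 10, against 17.6%. None passed after Benjamini-Hochberg adjustment over all probe sets, where the adjusted limma p ranged from 0.105 to 0.809. A whole embryo is a mixture, so that more cells of a type and more RNA per cell cannot be told apart in these values.

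*spo-11* encodes the topoisomerase-like protein that makes meiotic double-strand breaks. Its log2 values were 8.88, 9.10 and 8.02 in mutant embryos, against 7.49, 7.25 and 7.61 in wild-type embryos. All mutant arrays were higher than all wild-type arrays, and the lowest of them was replicate 3. The log2 change was 1.22 (standard error 0.29), a fold change of 2.33, with an unadjusted limma p of 0.0053 and an adjusted p of 0.112. In a fit blocked on the replicate number, which called 4.27% of all probe sets higher and 3.62% lower, its unadjusted p was 0.0128 and the call was lost. Among the 6 fits that each left out an array, *spo-11* was called in 1, the fit lacking mutant replicate 3 (1.54). It missed the p threshold in the fits lacking mutant replicate 1 (a log2 change of 1.11), mutant replicate 2 (1.00), wild-type replicate 1 (1.24), wild-type replicate 2 (1.12) or wild-type replicate 3 (1.30). Its adjusted p ranged from 0.0016 to 0.316 over 16 alternative fits.

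The largest change among the members was that of *zim-2*, whose protein binds the pairing center of chromosome V. Its log2 values were 8.24, 9.06 and 7.79 in mutant embryos, against 7.04, 6.81 and 6.96 in wild-type embryos. The wild-type arrays lay close together, all mutant arrays were above them, and replicate 2 was the highest. The log2 change was 1.43 (standard error 0.31), a fold change of 2.69, with an unadjusted limma p of 0.0038 and an adjusted p of 0.105. Blocking on the replicate number kept the call, at an unadjusted p of 0.0074, and *zim-2* was the only member so called. Among the fits that left out an array, *zim-2* was called in those lacking mutant replicate 2 (1.08) or mutant replicate 3 (1.71). It missed the p threshold in those lacking mutant replicate 1 (1.49), wild-type replicate 1 (1.48), wild-type replicate 2 (1.36) or wild-type replicate 3 (1.44). Its adjusted p ranged from 0.0015 to 0.316 over 16 alternative fits.

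The other pairing center proteins had smaller changes and were not called. *him-8*, whose product binds the pairing center of the X chromosome, had log2 values of 10.11, 10.15 and 9.30 in mutant embryos, against 8.90, 8.98 and 9.31 in wild-type embryos. Mutant replicates 1 and 2 were above every wild-type array, whereas mutant replicate 3 lay just under wild-type replicate 3. The log2 change of *him-8* was 0.79 (standard error 0.26, limma, adjusted p = 0.148). *zim-3*, which acts on chromosomes I and IV, had values of 6.74, 7.20 and 6.22 in mutant and 6.07, 6.20 and 6.0 in wild-type embryos, a log2 change of 0.63 (standard error 0.24, limma, adjusted p = 0.182). Its groups did not overlap, but mutant replicate 3 exceeded wild-type replicate 2 by a small margin. *zim-1*, which acts on chromosomes II and III, had values of 7.28, 7.63 and 6.69 in mutant and 6.43, 6.81 and 6.66 in wild-type embryos, a log2 change of 0.57 (standard error 0.25, limma, adjusted p = 0.219). Its groups overlapped, and since only mutant replicate 2 was called present, the size of the *zim-1* difference is not exact.

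All of *him-8*, *zim-1*, *zim-2*, *zim-3* and *spo-11* were called when mutant replicate 3 was left out, a fit in which 6.77% of all probe sets were called higher. Their log2 changes were then 1.07, 0.83, 1.71, 0.88 and 1.54, in that order. The same 5 genes were called when arrays were weighted by their fit, where 7.68% of all probe sets were called higher. No member was called without mutant replicate 1, where 1.70% of all probe sets were called higher. The same held without wild-type replicate 1, 2 or 3, where 1.91%, 3.34% and 1.96% of all probe sets were called higher. Only *zim-2* was called without mutant replicate 2, a fit in which 2.26% of all probe sets were called higher.

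Among the remaining recombination genes, no probe set was called in embryos. *msh-5* encodes a MutS homolog that acts in crossover formation and not in mismatch repair. Its probe set 187673_at had log2 values of 8.10, 8.83 and 7.80 in mutant embryos, against 7.75, 7.50 and 7.77 in wild-type embryos, a change of 0.57 (standard error 0.27, limma, adjusted p = 0.239). The groups did not overlap, although mutant replicate 3 exceeded wild-type replicate 3, the highest of its group, by only 0.028. Its other probe set, 193857_s_at, gave a change of 0.31 (standard error 0.14) with overlapping groups, and the mean of both gave 0.44 (standard error 0.20). Both sit near the limit of detection in embryos, so that the size of the difference is uncertain.

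*rad-51* encodes the recombinase that pairs a broken end with its template, in mitotic as well as in meiotic cells. Its log2 values were 10.55, 10.92 and 10.13 in mutant and 9.96, 10.32 and 10.11 in wild-type embryos, a change of 0.40 (standard error 0.21, 95% confidence interval −0.12 to 0.93, limma, adjusted p = 0.284). Replicates 1 and 2 of the mutant exceeded all wild-type arrays, and replicate 3 did not. *him-17*, which encodes a chromatin-associated protein needed for break formation, had values of 10.47, 10.69 and 10.09 in mutant and 10.12, 9.92 and 10.33 in wild-type embryos, a change of 0.29 (standard error 0.18, 95% confidence interval −0.15 to 0.74). The groups overlapped. The absent probe set of *chk-2* changed by −0.036 (standard error 0.078), and it turned positive when the arrays were centred on their medians (0.062) or quantile normalized again (0.053).

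**Figure D2:**
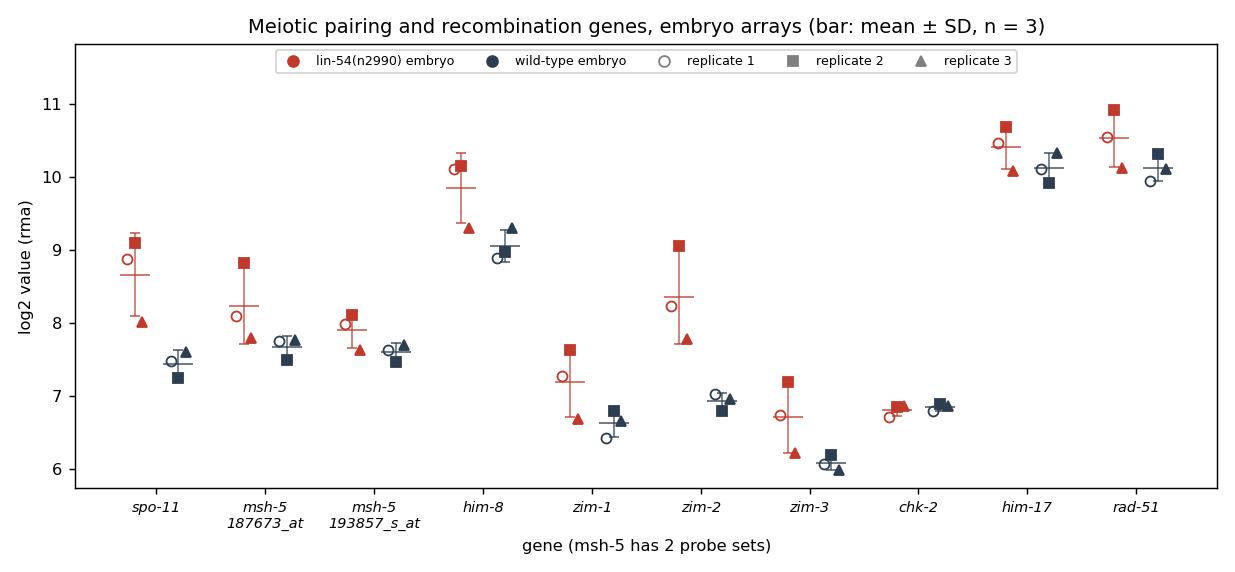
Deposited log2 value of each probe set on the 3 *lin-54(n2990)* and the 3 wild-type embryo arrays, with mutant points left of wild-type points and bars for the mean ± SD (n = 3 each). *spo-11*, *zim-2*, *zim-3* and *msh-5* probe set 187673_at have all mutant arrays above all wild-type arrays, the last 2 by a small margin. Mutant replicate 3 (triangle) is the lowest mutant array for 9 of the 10 probe sets. Values of different probe sets are not comparable with each other.

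The members followed a common order among the mutant embryo arrays. Replicate 2 was the highest of all 6 embryo arrays for 9 of the 10 probe sets, and replicate 3 was the lowest mutant array for 9. Lists of stage and cell type markers moved with the same order. Maternal RNAs of oocytes and early embryos were higher in the mutant for 18 of 18 probe sets, with a median log2 change of 0.70 and *cpg-2*, which encodes an eggshell proteoglycan, called. The log2 of their summed signal was 15.30, 15.83 and 14.50 in mutant embryos, against 14.09, 14.76 and 14.26 in wild-type embryos, so that replicate 2 was again the highest and replicate 3 the lowest mutant array.

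Markers of late embryonic muscle, neuron, gut and epidermis ran the other way. They were lower in the mutant for 12 of 14 probe sets with a median of −0.63 and 0 of 9 genes called, and their summed signal was 13.57, 13.01 and 13.85 in mutant embryos, against 14.24, 14.13 and 14.17 in wild-type embryos. Early zygotic genes were higher for 9 of 9 probe sets (median 0.61, *vet-1* and *pes-10* called), with a summed signal of 12.87 to 13.24 in mutant and 12.10 to 12.28 in wild-type embryos. General germ line markers were higher for 14 of 14 probe sets, with a median of 0.50 and *glh-1*, a P granule helicase gene, called. Their summed signal ranged from 12.23 to 13.01 in mutant and from 11.93 to 12.21 in wild-type embryos. Markers of the sheath and spermatheca had a median of −0.27, and 7 of 9 sperm genes were present on no embryo array. The part of stage or of germ cell content in the values of the pairing and recombination genes was not tested.

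The pairing genes lie together in the genome. On chromosome IV, *zim-1*, *zim-2*, *zim-3* and *him-8* are 4 consecutive protein-coding genes in the RefSeq annotation of assembly WBcel235, with 0 coding genes between them. Of the 9 members, 7 are on chromosome IV, which holds 15.8% of the genes on the array, and *chk-2* and *him-17* are on chromosome V. In embryos all 4 genes of the cluster had a higher mean in the mutant, with log2 changes of 0.57 to 1.43. The nearest measured coding genes did not share this. T07G12.3, on the *zim-1* side, had a log2 change of −0.79 (standard error 0.36, limma, adjusted p = 0.232), and *efn-2*, an ephrin gene next to *him-8*, had −0.46 (standard error 0.23, limma, adjusted p = 0.256). For *efn-2*, all 3 mutant arrays were under all wild-type arrays, as for 17.6% of all probe sets. C02F4.5 and C43F9.4, the next measured genes outward, changed by −0.087 and 0.035, and none of the 4 neighbours was called in either tissue. Detection limits this contrast. In embryos *efn-2* was present on all arrays, T07G12.3 on 2 mutant and 2 wild-type arrays, C43F9.4 on 1 wild-type array and C02F4.5 on none. In germlines only C43F9.4 was present, on 1 wild-type array.

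**Figure D3:**
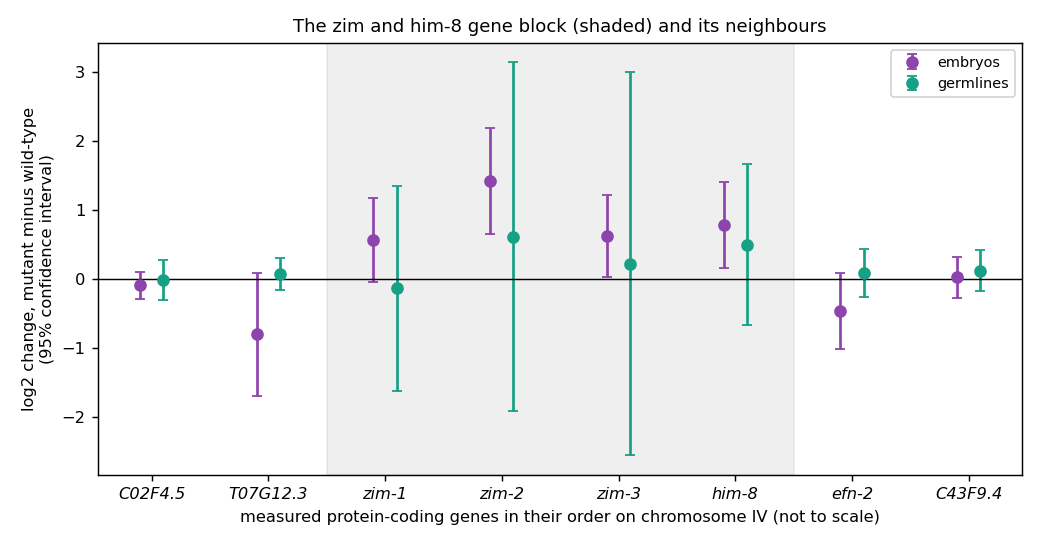
Log2 change, mutant minus wild-type, of *zim-1*, *zim-2*, *zim-3* and *him-8* (shaded) and of the first 2 measured protein-coding genes on each side, in gene order on chromosome IV, for embryos and germlines with 95% confidence intervals from limma. In embryos the estimates of the 4 shaded genes lie above 0 and those of the nearest measured gene on each side below it. Germline intervals of the shaded genes, drawn without the replicate number as a block, all span 0.

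Other genes of meiosis were taken from lists of 52 genes, of which 48 were measured with 66 probe sets. In embryos 10 of these genes rose and 0 fell, while 1.53% of all probe sets were called lower. Called probe sets made up 15.2% of the 66, against 3.38% of all probe sets. A higher mean in the mutant was found for 64 of the 66, with a median log2 change of 0.51. As the lists were chosen with earlier results of these data known, these shares are a description. The count depended on single arrays. Leaving out mutant replicate 1, 2 or 3 gave 2, 5 and 26 genes, while 1.70%, 2.26% and 6.77% of all probe sets were called higher in these fits, in that order. Leaving out wild-type replicate 1, 2 or 3 gave 2, 5 and 1 genes, with 1.91%, 3.34% and 1.96% of all probe sets called higher. The fit blocked on the replicate number called 12 genes, 9 of them shared with the 10. It lost *cep-1* and added *him-3*, *hal-2* and *mre-11*.

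Genes of the synaptonemal complex and chromosome axis had the largest median log2 change of these lists, 1.17. Of 11 measured genes with 12 probe sets, 5 were called, where 3.38% of all probe sets were called higher. *syp-1*, which encodes a protein of the central region that holds paired axes together, rose by 2.35 (standard error 0.18, limma, adjusted p = 0.0146). *lab-1*, which protects cohesion, rose by 1.37 (standard error 0.29), *htp-2* by 1.22 (standard error 0.24), *htp-1* by 1.02 (standard error 0.25) and *syp-3* by 0.93 (standard error 0.23). *htp-1* and *htp-2* encode near-identical axis proteins, so that their probe sets can share signal. *him-3*, another axis gene, had changes of 1.27 on both probe sets and did not pass.

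In the other groups fewer genes were called, where 3.38% of all probe sets were called higher. The pairing, crossover, checkpoint and break groups had 12, 16, 10 and 16 probe sets, in that order. Of the pairing and nuclear envelope genes, 1 of 8 rose, *sun-1* (0.93, standard error 0.25), which encodes the inner nuclear envelope protein that connects chromosome ends to the cytoskeleton. Its other probe set gave 0.83 and was not called. Of the crossover genes, 2 of 11 rose, the nuclease genes *exo-1* (0.72, standard error 0.17) and *mus-81* (0.65, standard error 0.16). The other *exo-1* probe set gave 0.20 and was not called. Of the checkpoint genes, 2 of 7 rose, the p53 homolog *cep-1* (0.75, standard error 0.18) and *mrt-2* (0.74, standard error 0.18), which encodes a subunit of a DNA damage clamp. The other *cep-1* probe set gave 1.04 (standard error 0.38) and was not called. Of the 11 measured genes of break formation and repair, 0 were called, with a median log2 change of 0.41 (*dsb-1* 0.99, standard error 0.33; *him-5* 1.05, standard error 0.40). Adjusted limma p-values of the called genes other than *syp-1* were 0.0979 to 0.121.

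Genes whose profile over the 6 embryo arrays was closest to that of a called member were found by the root-mean-square difference of mean-centred log2 values. For *zim-2* these were *hmg-3* (0.0781), which encodes a homolog of a subunit of the histone chaperone FACT, T02H6.5 (0.105) and Y71G12A.4 (0.113), with log2 changes of 1.54, 1.44 and 1.58. For *spo-11* they were *ztf-15* (0.0766), a zinc-finger gene, B0416.4 (0.0800) and T26A5.2 (0.0901), with log2 changes of 1.13, 1.24 and 1.10. As they were picked for likeness to a called profile, these changes are given as a description. None of the 6 genes lies on chromosome IV.

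In *lin-54(n3423)* germlines no member was called. Of the 10 probe sets, 6 had a higher and 4 a lower mean in the mutant, with a median log2 change of 0.15, against 0.023 over all probe sets, of which 56.6% were higher. Called probe sets were few in the whole germline table, 0.0696% higher and 0.371% lower, and none had an adjusted limma p of at most 0.05, while 539 had an unadjusted p under 0.05. The fit blocked on the replicate number called 0.297% of all probe sets higher, 0.984% lower and 0 members. Standard errors of the members reached 1.12 on the log2 scale, compared with at most 0.31 in embryos. The array numbered 1 was the lowest mutant array for 8 and the lowest wild-type array for 9 of the 10 probe sets.

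*spo-11* was the only member whose germline groups did not overlap. All its mutant arrays were the higher ones, as for 4.02% of all probe sets, and no member had all mutant arrays lower, as 3.15% of all probe sets did. Its log2 values were 9.56, 9.22 and 9.16 in mutant germlines, against 8.46, 9.08 and 8.48 in wild-type germlines. The mutant array numbered 1 was the highest of all 6 for this gene. The log2 change was 0.64 (standard error 0.22, limma, adjusted p = 1.00). It passed the call thresholds only without wild-type replicate 2 (0.84), the highest wild-type array, and with both arrays numbered 1 left out the change was 0.41 (standard error 0.22).

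The pairing center genes had wide spreads in germlines. *zim-2* had log2 values of 7.21, 9.36 and 9.33 in mutant germlines, against 6.09, 9.33 and 8.63 in wild-type germlines, a change of 0.62 (standard error 1.02, or 0.23 with the replicate number as a block). Replicate 1 of both genotypes was far below the others. *zim-3* had 7.32, 9.07 and 9.18 in mutant and 5.92, 9.46 and 9.51 in wild-type germlines, a change of 0.23 (standard error 1.12). It was higher in the mutant for the arrays numbered 1 and lower for those numbered 2 and 3. *zim-1* had 6.59, 7.54 and 7.66 in mutant and 6.15, 8.0 and 8.04 in wild-type germlines, a change of −0.13 (standard error 0.60). Its arrays followed the pattern of *zim-3*. *him-8* had 9.66, 9.67 and 9.80 in mutant and 8.14, 9.99 and 9.49 in wild-type germlines, a change of 0.50 (standard error 0.47). Here wild-type replicate 1 alone was low.

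The other germline values overlapped between the genotypes. *msh-5* probe set 187673_at had log2 values of 7.50, 8.98 and 9.10 in mutant and 7.35, 8.60 and 8.59 in wild-type germlines, a change of 0.35 (standard error 0.56), and its probe set 193857_s_at gave −0.23 (standard error 0.54). The probe sets disagree in sign, and their mean changed by 0.061 (standard error 0.55). *rad-51* had 9.93, 10.64 and 10.87 in mutant and 9.68, 10.94 and 11.04 in wild-type germlines, with a change of −0.075 (95% confidence interval −1.18 to 1.03). *him-17* had 7.12, 9.26 and 9.53 in mutant and 6.98, 9.36 and 9.35 in wild-type germlines, with a change of 0.075 (95% confidence interval −2.22 to 2.37). These intervals hold changes beyond the call threshold in either direction, but they do not take the replicate number into account. With the number as a block the interval was −0.44 to 0.29 for *rad-51* and −0.19 to 0.34 for *him-17*, within the fold threshold on both sides. Block intervals lay above 0 for *spo-11* (0.091 to 1.19), *msh-5* probe set 187673_at (0.060 to 0.64) and *zim-2* (0.012 to 1.22). Their adjusted limma p in that fit was 0.592 to 0.624, and the block intervals of all other member probe sets spanned 0. The absent *chk-2* probe set had a change of −0.00019 (standard error 0.12).

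**Figure D4:**
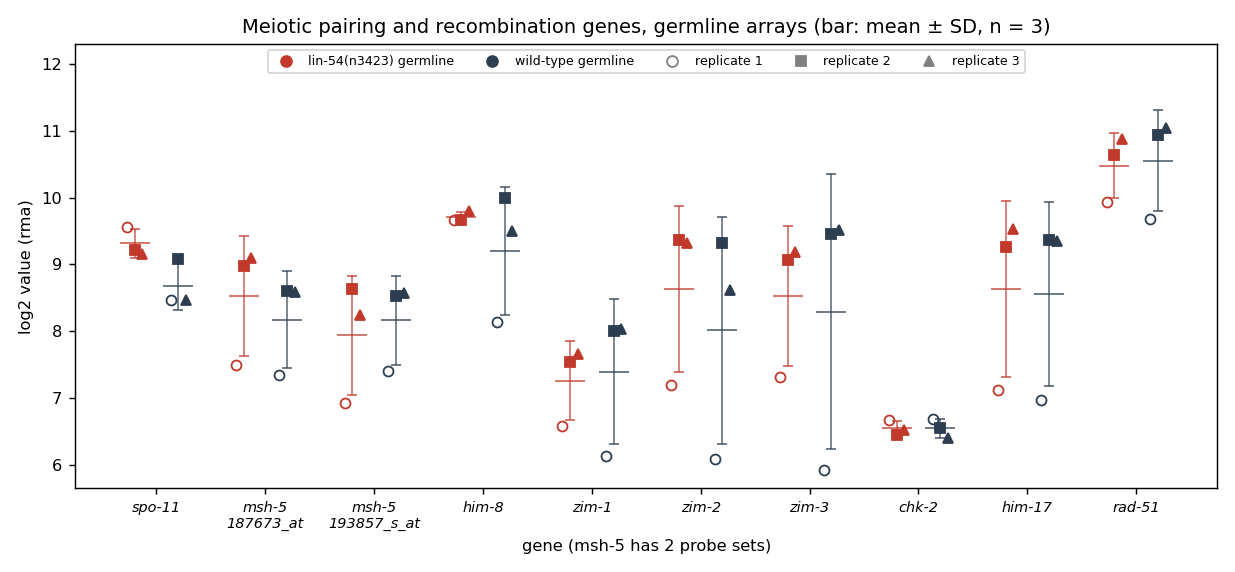
Deposited log2 value of each probe set on the 3 *lin-54(n3423)* and the 3 wild-type germline arrays, with mutant points left of wild-type points and bars for the mean ± SD (n = 3 each). Replicate 1 (open circle) is the lowest mutant array for 8 and the lowest wild-type array for 9 of the 10 probe sets, and only *spo-11* has all mutant arrays above all wild-type arrays.

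Leaving out both germline arrays numbered 1, a choice made after seeing the data, changed some signs. It narrowed the standard errors of *zim-1*, *zim-3* and *msh-5* probe set 187673_at, whereas that of *spo-11* hardly changed. In this comparison of 2 mutant and 2 wild-type arrays no member was called. *zim-1* changed by −0.42 (standard error 0.091, limma, adjusted p = 0.280) and *zim-3* by −0.36 (standard error 0.091, limma, adjusted p = 0.322), while *msh-5* probe set 187673_at changed by 0.45 (standard error 0.091, limma, adjusted p = 0.267). All 3 were under the fold threshold. *zim-2* changed by 0.37, *him-8* by −0.0053 and *rad-51* by −0.24.

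The germ line marker list overlapped between the genotypes in germlines. The summed signal of germ line markers was 12.05, 13.38 and 13.69 in mutant germlines, against 12.42, 13.36 and 13.40 in wild-type germlines, with replicate 1 low in both. Maternal RNAs were higher in the mutant for 1 of 18 probe sets, with a median log2 change of −0.28. The sheath and spermatheca list had a summed signal of 9.53 to 9.92 in mutant and 10.43 to 10.83 in wild-type germlines. Of its 7 probe sets 5 had a higher mean in the mutant, with a median log2 change of 0.033 over the list. Those 5 were present on no germline array, apart from *inx-9* on 1 wild-type array. The probe sets with a lower mean, of *inx-8* and *fos-1*, were called present on arrays of both genotypes. The called gene of this list was the gap junction gene *inx-8*, which fell by 2.67 (standard error 0.21, limma, adjusted p = 0.214). The early zygotic, late embryo and sperm lists overlapped between the genotypes in summed signal, the last with 10.05 to 11.01 in mutant and 9.94 to 10.44 in wild-type germlines. The early zygotic gene *vet-1* was called higher on 1 probe set (0.81, standard error 0.18), and its other probe set (0.41) was not called. The part of these differences in the values of the members was not tested. Of the 48 measured genes in the meiosis lists, 0 rose and 0 fell in germlines, where 0.0696% of all probe sets were called higher and 0.371% lower. Their median log2 change was 0.011, with 33 of 66 probe sets higher.

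The changes in the 2 tissues, each taken within its own table because embryos and germlines were normalized separately, are set side by side in the plot of both changes. For 9 of the 10 probe sets the embryo change was the larger. The difference, embryo change minus germline change, was 0.81 for *zim-2*, 0.70 for *zim-1*, 0.58 for *spo-11*, 0.40 for *zim-3* and 0.29 for *him-8*. In an exact two-sided permutation test of genotypes within tissues, with 400 arrangements and a smallest possible p of 0.005, p ranged from 0.365 to 0.815 over the 10 probe sets. The embryo calls of *zim-2* (exact p = 0.53) and *spo-11* (exact p = 0.425) were therefore not shown to differ from their germline values. The test did not take the replicate number into account, so that the low *zim-2* values of both germline arrays numbered 1 add to its spread. With both germline arrays numbered 1 left out (120 arrangements), the exact p was 0.0167 for *zim-3* (a difference of 0.98), 0.0333 for *zim-1* (0.99) and 0.05 for *rad-51* (0.64), and 0.167 for all 3 after adjustment over the 10 probe sets. The same 3 had an exact p of 0.04, 0.03 and 0.05 without wild-type germline replicate 1 alone, again with an adjusted p of 0.167. That comparison is unbalanced, as it keeps the mutant germline array numbered 1, the lowest mutant array for these 3 genes. No difference between the tissues passed the correction in these settings. With 120 arrangements 0.0167 is the smallest possible p, so that a probe set alone could not pass there, and its failure decides nothing.

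**Figure D5:**
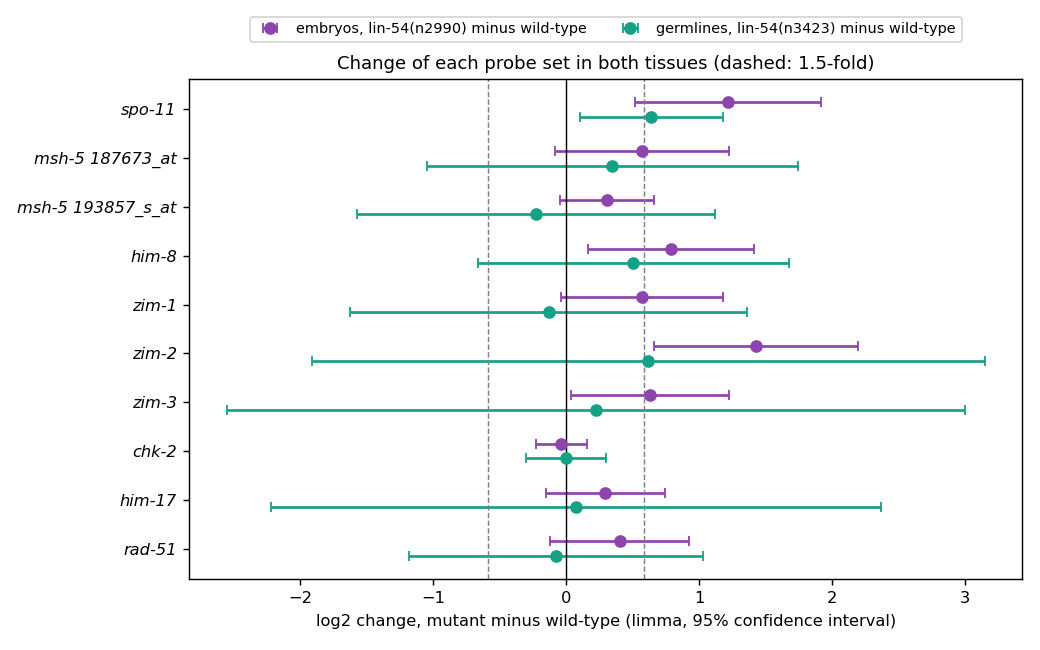
Log2 change, mutant minus wild-type, of each probe set in embryos (*lin-54(n2990)*) and germlines (*lin-54(n3423)*), with 95% confidence intervals from limma and dashed lines at a fold change of 1.5. Embryo intervals lie above 0 for *spo-11*, *him-8*, *zim-2* and *zim-3*, whereas in germlines only that of *spo-11* does and the intervals of *zim-2*, *zim-3* and *him-17* are the widest. The intervals are drawn without the replicate number as a block.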

How the data were processed

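RNA of 12 samples was measured on Affymetrix *C. elegans* Genome arrays, 3 per genotype and tissue, 1 array per replicate. The study's methods call the 3 arrays of a group biological replicas, without saying whether these were separate cultures, and p-values measure the spread between these samples. The deposited values are log2 expression values made by the authors with RMA in the affy package, which corrects background, quantile normalizes and summarizes the probes of a set. Embryo and germline arrays were treated apart. Each array also has a detection call per probe set. The tables also hold the authors' own fold changes and p-values from limma, which were not used. The scanner signal was not used here, and the number of arrays limits the precision.

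Each tissue was fitted alone with limma 3.58.1 in R 4.3.3 (lmFit, eBayes, mutant minus wild-type, 21541 probe sets), with a call at 1.5-fold or more and an unadjusted p no higher than 0.01. Adjusted p-values are Benjamini-Hochberg over all probe sets. Levels of different probe sets were not compared. Arrays of the same number deviated together (r of deviations from genotype means 0.246, 0.362 and 0.276 in embryos, 0.834, 0.363 and 0.392 in germlines), so that fits with the number as a block were also made. Figures used Python 3.11.15 and matplotlib 3.10.9. Fits were tested on simulated data. Gene symbols come from the embryo table. Probe sets ending in _s_at (*him-17*, *chk-2*, *rad-51* and 1 of *msh-5*) may also match other transcripts.

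Members and gene lists were chosen with earlier results of these data known. Named are all members, called genes of the meiosis lists, the neighbours of the *zim* genes and *him-8*, and the 3 genes most like each called member. The uncalled *him-3*, *dsb-1*, *him-5*, *hal-2* and *mre-11*, and the marker genes *cpg-2*, *vet-1*, *pes-10*, *glh-1*, *inx-8*, *inx-9* and *fos-1*, were named after their values were seen. Sequences were not used here.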

Additional observations from a re-analysis of the deposited data

How the results depend on the processing

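Under the replicate block 1 member was called in embryos and under array weights 5, compared with 2 as reported. At an adjusted limma p of at most 0.05 over all probe sets, 0 were called. In these fits 4.27%, 7.68% and 0.246% of all probe sets were called higher, in that order, compared with 3.38%. Leaving out 1 array gave 0 to 5 members in embryos and 0 to 1 in germlines. The share of all probe sets called higher moved as well, from 1.70% to 6.77% in embryos and from 0.0557% to 0.265% in germlines. Apart from *spo-11*, the block changed no member's call. Over all settings with a value, *spo-11* was called in 9 of 16 and *zim-2* in 11 of 16 embryo fits, and no embryo change of a member other than *chk-2* turned negative. The number of probe sets with an exact p of at most 0.05 for the difference between tissues was 3 with both germline arrays numbered 1 left out, and 0 to 3 with single arrays left out, compared with 0.

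Germline signs were less stable. The *him-8* change was −0.15 under array weights and −0.0053 without both arrays numbered 1, that of *zim-3* was −0.35 and −0.36, that of *him-17* was −0.019 under array weights, and that of *chk-2* was 0.0027 after a repeated quantile normalization and 0.0085 without both arrays. In embryos *chk-2* was 0.062 after centring and 0.053 after quantile normalization. With single arrays left out, germline changes ranged from −0.96 to 0.83 for *zim-3*, from −0.34 to 1.33 for *zim-2*, from −0.76 to 0.21 for *zim-1*, from −0.029 to 0.89 for *him-8*, from −0.72 to 0.83 for *him-17*, from −0.51 to 0.20 for *rad-51*, from −0.066 to 0.86 and from −0.61 to 0.27 for the *msh-5* probe sets, and from −0.073 to 0.068 for *chk-2*, whose embryo range was −0.064 to 0.012. Centring moved the median of all embryo probe sets to 0.10. The causes were not tested.

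Meiosis genes called higher in embryos (10 as reported) were 1 at an adjusted p of at most 0.05, 4 at a fold change of at least 2, 23 under array weights, and 1 to 26 with single arrays left out. In germlines 1 was called higher after quantile normalization, and 1 higher and 1 lower under array weights, with the arrays numbered 1 as a batch term and without both of them. Over the whole embryo table, 728 probe sets were called higher and 330 lower. These became 53 and 4 at an adjusted p of at most 0.05, 245 and 92 at a fold change of at least 2, and 1654 and 1482 under array weights. The block gave 780 lower, and no fold threshold 697 lower. Single arrays left out gave 366 to 1458 higher and 79 to 1210 lower. Over the germline table, 15 were called higher and 80 lower. These became 64 and 212 under the block, 0 and 0 at an adjusted p of at most 0.05, 87 and 231 under array weights, 76 and 266 with the batch term, and 174 and 254 without both arrays numbered 1. No fold threshold gave 23 higher, and a fold change of at least 2 gave 42 lower. Single arrays left out gave 12 to 57 higher and 45 to 103 lower. Detection limits *zim-1* and *msh-5* in embryos and *chk-2* in both tissues.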
